A study of Mus musculus with 12 samples.

Results

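Immediate early genes are switched on within minutes of a growth signal, without new protein synthesis, and the ERK feedback genes are induced by the same kinase cascade and then restrain it. Described here are 10 of them, of 32285 genes in the count table, chosen by gene symbol as immediate early regulators and feedback inhibitors of the ERK pathway, with earlier results of these data known. They are Egr1, Fos, Jun, Junb, Ier2, Ier3, Dusp1, Dusp6, Spry2 and Spry4, and all 10 passed the filter on low counts. The cells were mouse embryonic stem cells, and each of 4 genotypes gave 3 libraries, namely the double knockout of DHX36 and FANCJ, the DHX36 knockout, the FANCJ knockout and wild type. All 4 are IB10 cells of 129/Ola origin, cultured untreated on gelatin in BRL-conditioned medium with fetal calf serum and leukemia inhibitory factor, so every group grew with a serum stimulus to the pathway. DHX36 is a helicase that unwinds G-quadruplexes, folded structures of guanine-rich DNA or RNA. FANCJ, the product of the gene Brip1, belongs to the Fanconi anaemia pathway of DNA repair and is a helicase that also unwinds them. Whether a knockout genotype was 1 clone or several is not stated in the sources used here. Since separate cultures for the 3 libraries of a genotype are not named either, the p-values describe only how these libraries spread, which may be technical.

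In embryonic stem cells, FGF4 secreted by the cells themselves acts through FGF receptors, RAS, RAF and MEK to phosphorylate ERK, and this signal prepares cells to leave the naive state. ERK and its target kinases activate ternary complex factors and SRF at the promoters of Egr1, Fos and Junb, and CREB-family factors act at several of the same genes. The response is limited at 2 levels. DUSP phosphatases remove the phosphates from the kinases, and Sprouty proteins interfere with signalling from receptor tyrosine kinases to ERK.

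The embryonic stem cell label fitted the markers: all 7 of Pou5f1, Nanog, Sox2, Zfp42, Esrrb, Klf4 and Tdgf1 had counts in every genotype, with summed levels of 3051 to 3294.3 CPM (counts scaled by the effective library total) in the double knockout, 2676.0 to 2864 CPM in the DHX36 knockout, 2119 to 2241 CPM in the FANCJ knockout and 2291 to 2486 CPM in wild type. Total counts were 10915924 to 14721931 in the double knockout. The DHX36 knockout had 6223087 to 10919405, the FANCJ knockout had 4936662 to 7900066 and wild type had 4284785 to 5792862, so the shallowest of the double knockout libraries still held more counts than any from wild type. Dhx36 averaged 13.9 CPM in the double and 10.5 CPM in the DHX36 knockout, against 55.6 CPM in the FANCJ knockout and 54.1 CPM in wild type. Brip1 averaged 0.414 CPM in the double and 0.338 CPM in the FANCJ knockout, against 6.93 CPM in the DHX36 knockout and 6.87 CPM in wild type.

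The promoters of 4 members are shown. Those of Jun, Dusp1 and Spry2 are the ones that held a G-quadruplex motif, and that of Fos is an example with the TGACG core bound by CREB-family factors, which Junb, not printed, held too. Each window covers the bases just before and just after the start of the gene in RefSeq (GRCm38.p6), and 7 of the 10 members had such a window in the table used. Capitals mark TGACG, the full cAMP response element TGACGTCA, the TATA box TATAAA and the G-quadruplex motif, defined as 4 runs of at least 3 G separated by 1 to 7 bases and written as runs of C where it lies on the other strand. The windows are chr12:85473640-85473939 (plus strand) for Fos, chr4:95052173-95052472 (minus strand) for Jun, chr17:26508423-26508722 (minus strand) for Dusp1 and chr14:105896770-105897069 (minus strand) for Spry2.
Fos: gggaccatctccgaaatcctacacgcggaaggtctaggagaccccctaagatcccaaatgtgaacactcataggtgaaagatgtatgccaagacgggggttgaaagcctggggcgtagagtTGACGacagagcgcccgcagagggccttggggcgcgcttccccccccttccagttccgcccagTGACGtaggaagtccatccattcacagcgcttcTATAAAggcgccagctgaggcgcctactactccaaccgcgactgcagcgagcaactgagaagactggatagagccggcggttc
Jun: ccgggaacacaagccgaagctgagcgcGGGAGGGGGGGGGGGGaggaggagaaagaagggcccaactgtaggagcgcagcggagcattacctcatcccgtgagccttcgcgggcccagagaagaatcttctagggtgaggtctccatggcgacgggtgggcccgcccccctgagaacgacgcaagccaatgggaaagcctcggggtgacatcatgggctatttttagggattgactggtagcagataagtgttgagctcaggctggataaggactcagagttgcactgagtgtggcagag
Dusp1: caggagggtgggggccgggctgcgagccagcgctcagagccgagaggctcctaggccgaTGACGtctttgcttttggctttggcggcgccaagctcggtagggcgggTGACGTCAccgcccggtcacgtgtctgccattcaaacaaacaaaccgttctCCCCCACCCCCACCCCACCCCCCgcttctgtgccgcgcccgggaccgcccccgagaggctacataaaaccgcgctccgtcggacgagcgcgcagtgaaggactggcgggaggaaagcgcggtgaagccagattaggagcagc
Spry2: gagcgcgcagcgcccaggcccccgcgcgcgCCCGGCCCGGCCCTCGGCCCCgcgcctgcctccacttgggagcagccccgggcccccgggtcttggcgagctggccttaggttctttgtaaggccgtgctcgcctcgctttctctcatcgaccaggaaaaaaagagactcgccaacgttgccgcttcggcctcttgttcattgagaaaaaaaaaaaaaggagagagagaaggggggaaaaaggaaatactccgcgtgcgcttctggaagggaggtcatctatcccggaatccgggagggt

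Of the 7 windows, 3 held a G-quadruplex motif (Jun, Dusp1 and Spry2), as did 18.6% of all 32851 promoters searched in the same way. Both strands were searched. The core TGACG occurred in 3 of 7, in Fos, Junb and Dusp1, and in 20.8% of all promoters, and the full element TGACGTCA, which contains the core on both strands, in Dusp1 and in 1.79% of all. The TATA box TATAAA was in Fos and Junb and in 13.6% of all promoters. A CArG box, the site bound by SRF, was in none of the 7 windows and in 1.63% of all. Egr1, Ier2 and Spry4 had no window. The windows reach only a short way upstream, that of Fos from 85473640 with the gene starting at 85473890. Sites farther upstream were not searched. These matches describe the letters of the windows only.

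The members lie on 7 chromosomes (GENCODE M21 annotation of GRCm38). Egr1 (ENSMUSG00000038418) and Spry4 (ENSMUSG00000024427) are on chromosome 18, from 34859823 to 34864984 on the plus strand and from 38586247 to 38601415 on the minus strand. Fos (ENSMUSG00000021250) spans 85473890 to 85477273 of chromosome 12, plus strand. Jun (ENSMUSG00000052684) spans 95049034 to 95052222 of chromosome 4, minus strand. Junb (ENSMUSG00000052837) and Ier2 (ENSMUSG00000053560) are both on the minus strand of chromosome 8, from 84974484 to 84978718 and from 84661331 to 84662852. Ier3 (ENSMUSG00000003541) spans 35821684 to 35822923 of chromosome 17, plus strand, and Dusp1 (ENSMUSG00000024190) spans 26505590 to 26562128 of the same chromosome, minus strand. This Dusp1 model reaches far upstream of the RefSeq start, where the window of 26508423 to 26508722 lies. Dusp6 (ENSMUSG00000019960) spans 99263231 to 99267489 of chromosome 10, plus strand, and Spry2 (ENSMUSG00000022114) spans 105891947 to 105896819 of chromosome 14, minus strand. The model of Junb overlaps Prdx2 and that of Dusp1 overlaps Ergic1, each on the opposite strand. The use of strand in counting is not stated in the sources used here, and the values of these neighbours are therefore set beside the results for Junb and Dusp1.

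In the double knockout most of the 10 genes were lower than in wild type. Ier3, Junb, Dusp1, Spry2, Dusp6 and Egr1 fell, while Spry4 rose and Fos, Jun and Ier2 did not pass the test (edgeR quasi-likelihood test, Benjamini-Hochberg adjusted over all 12765 genes tested, threshold 0.05). Thus 6 fell and 1 rose of 10, where 33.9% of all genes tested changed (17.3% fell and 16.6% rose). The median log2 fold change was -0.43 over the 10 and 0.01 over all genes. The plot of levels by library shows every value.

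**Figure D1:**
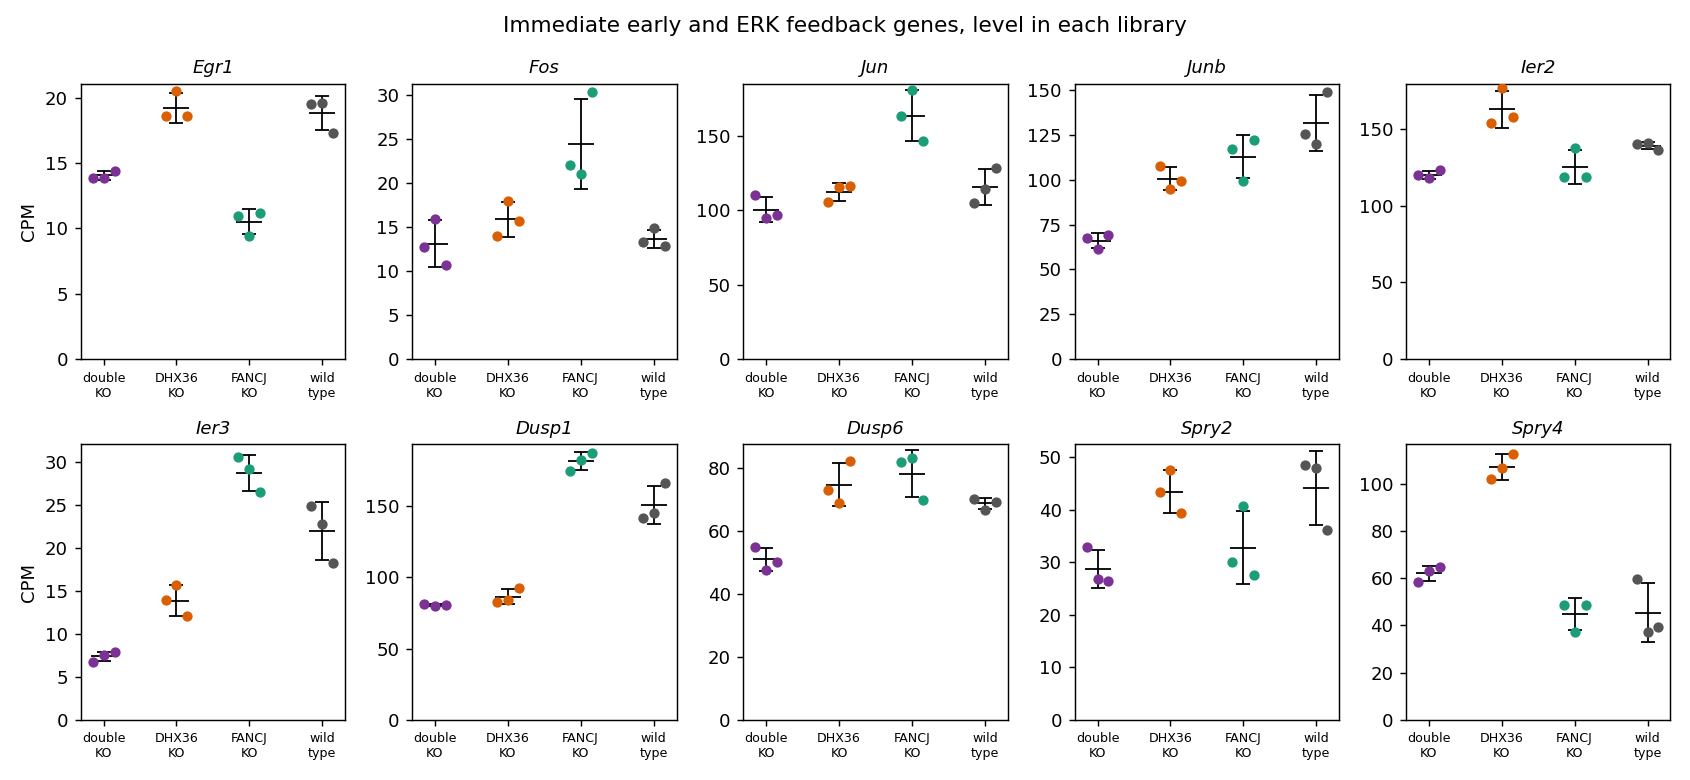
Level of each gene in CPM (vertical axis, starting at 0) in the 3 libraries of each genotype (coloured points), with the mean and SD in black. Ier3 in the double knockout lies between 6.76 and 7.84 CPM, below every library of the other 3 genotypes, and Spry4 in the DHX36 knockout lies between 102 and 113 CPM, above all others.

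The DHX36 knockout moved fewer of the genes. Junb, Ier3 and Dusp1 fell and Spry4 rose, 3 down and 1 up of 10, against 24.4% of all genes changed (11.6% down and 12.8% up), with a median of -0.01 over the 10 and 0.005 over all genes. In the FANCJ knockout Fos and Jun rose and Egr1 fell, 2 up and 1 down of 10. There 2.07% of all genes tested changed (1.45% rose and 0.619% fell), and the medians were 0.09 over the 10 and -0.00 over all genes. The 3 comparisons share the wild-type libraries. The plot of fold changes sets them side by side.

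**Figure D2:**
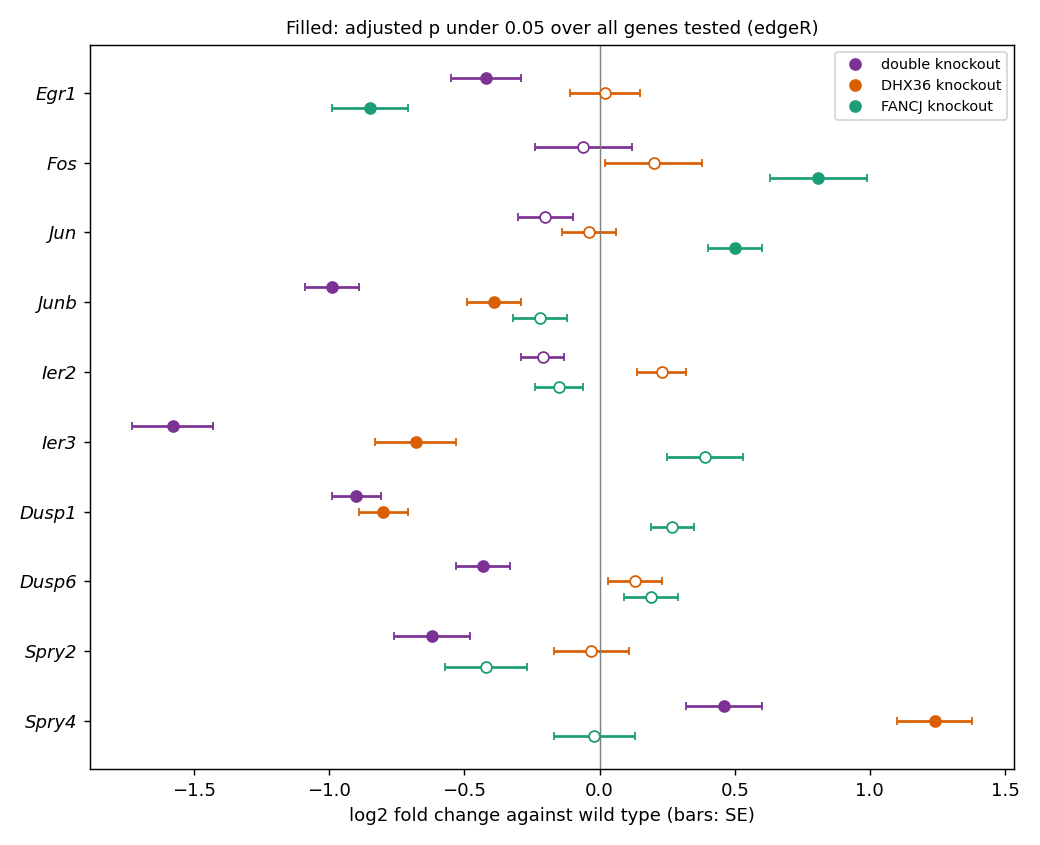
Log2 fold change against wild type (horizontal axis, with SE bars) of each gene in the double knockout, the DHX36 knockout and the FANCJ knockout, with filled points for an adjusted p under 0.05. Ier3 has the lowest value (-1.58, double knockout) and Spry4 the highest (1.24, DHX36 knockout).

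Among the transcription factors, Egr1, a zinc-finger protein whose gene is a direct target of ERK signalling, was lowest where FANCJ alone was lost. Its level was 13.9, 13.9 and 14.4 CPM in the double knockout, 18.6, 20.5 and 18.6 CPM in the DHX36 knockout, 10.96, 9.44 and 11.1 CPM in the FANCJ knockout and 19.5, 19.6 and 17.3 CPM in wild type. The FANCJ knockout lay below every other library and the double knockout between it and the rest, whereas the DHX36 knockout and wild type overlapped. Relative to wild type the log2 change of Egr1 was -0.85 (SE 0.14, adjusted p = 0.00227) in the FANCJ knockout and -0.42 (SE 0.13, adjusted p = 0.0135) in the double knockout, a fall in both, while the DHX36 knockout differed by 0.02 (95% interval -0.24 to 0.29). The call in the double knockout was lost without wild-type library 2 (-0.39, adjusted p = 0.0584), without an expression filter (adjusted p = 0.0517) and after thinning every library to the same depth (-0.16, adjusted p = 0.562).

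Fos and Jun, which pair to form the AP-1 transcription factor, were highest in the FANCJ knockout. Fos was at 12.7, 15.95 and 10.7 CPM in the double knockout, 14.01, 17.998 and 15.7 CPM in the DHX36 knockout, 22.04, 21.01 and 30.3 CPM in the FANCJ knockout and 13.3, 14.9 and 12.9 CPM in wild type. Jun was at 110.2, 94.5 and 96.6 CPM in the double knockout, 105, 115 and 117 CPM in the DHX36 knockout, 163, 181 and 146 CPM in the FANCJ knockout and 105, 114 and 129 CPM in wild type. For both genes the 3 FANCJ knockout libraries lay above all 9 others, which overlapped among genotypes. Fos rose 1.76-fold in the FANCJ knockout (log2 0.81, SE 0.18, adjusted p = 0.0186) and Jun 1.42-fold (0.50, SE 0.10, adjusted p = 0.00913). Both calls were lost without wild-type library 1, at an adjusted p of 0.0694 for Fos (log2 0.80) and 0.0563 for Jun (0.44). Fos, with 55 to 200 counts per library, also lost its call without wild-type library 3 (0.77, adjusted p = 0.0585) or FANCJ knockout library 3 (0.65, adjusted p = 0.0814).

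Against wild type the double knockout differed by -0.06 for Fos (95% interval -0.43 to 0.31) and by -0.20 for Jun (-0.41 to 0.00). Relative to the FANCJ knockout, Fos fell by 0.88 (SE 0.16, adjusted p = 1.7e-04) and Jun by 0.70 (SE 0.10, adjusted p = 5.6e-06) in the double knockout.

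Junb, an AP-1 subunit that can oppose Jun, had another order. It stood at 67.8, 61.4 and 68.9 CPM in the double knockout, 107.5, 94.7 and 99.3 CPM in the DHX36 knockout, 117, 99.3 and 122 CPM in the FANCJ knockout and 126, 119.9 and 149 CPM in wild type. The double knockout was below all other libraries, the DHX36 knockout lay wholly below wild type, and the FANCJ knockout overlapped both of these. The fall against wild type was 1.99-fold in the double knockout (-0.99, SE 0.10, adjusted p = 1.2e-07) and 1.31-fold in the DHX36 knockout (-0.39, SE 0.10, adjusted p = 0.00723), and the FANCJ knockout differed by -0.22 (SE 0.10, adjusted p = 0.299). Prdx2, the overlapping gene on the other strand, had -0.51 (adjusted p = 4.0e-04) in the double knockout and -0.24 (adjusted p = 0.0855) in the DHX36 knockout, and reads of the pair cannot be told apart here.

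Ier2 encodes a short-lived nuclear regulator of transcription, and Ier3 a short-lived protein that affects cell survival and ERK dephosphorylation. Ier2 stood at 119.99, 117.95 and 123 CPM in the double knockout, 154, 177 and 158 CPM in the DHX36 knockout, 119, 138 and 119 CPM in the FANCJ knockout and 140.2, 141 and 137 CPM in wild type. The double knockout lay wholly below wild type and the DHX36 knockout wholly above it, while the FANCJ knockout overlapped both the double knockout and wild type. Its log2 differences from wild type did not pass the test, at -0.21 (adjusted p = 0.0602) in the double knockout, 0.23 (adjusted p = 0.0580) in the DHX36 knockout and -0.15 (adjusted p = 0.435) in the FANCJ knockout. Between the genotypes without DHX36 it fell by 0.44 (SE 0.08, adjusted p = 6.5e-04) in the double relative to the DHX36 knockout.

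Ier3 had the widest range of the 10 genes as a ratio of its highest to its lowest library, though not in CPM. Levels were 6.76, 7.50 and 7.84 CPM in the double knockout, 13.9, 15.6 and 12.02 CPM in the DHX36 knockout, 30.5, 29.1 and 26.4 CPM in the FANCJ knockout and 24.8, 22.8 and 18.3 CPM in wild type. No 2 genotypes overlapped, in the order double knockout, DHX36 knockout, wild type and FANCJ knockout from low to high, although the step between the FANCJ knockout and wild type did not pass the test (0.39, SE 0.14, adjusted p = 0.173). Ier3 fell 3.00-fold in the double knockout (-1.58, SE 0.15, adjusted p = 4.7e-08) and 1.61-fold in the DHX36 knockout (-0.68, SE 0.15, adjusted p = 0.00152).

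Both phosphatase genes were low in the double knockout, but they differed in the DHX36 knockout. Dusp1, a nuclear phosphatase that acts on p38 and JNK as well as ERK, was at 81.2, 80.1 and 80.8 CPM in the double knockout, 82.5, 84.5 and 92.8 CPM in the DHX36 knockout, 175, 183 and 188 CPM in the FANCJ knockout and 141, 146 and 166 CPM in wild type. The 6 libraries without DHX36 lay between 80.1 and 92.8 CPM and the 6 with it between 141 and 188 CPM. It fell 1.87-fold in the double knockout (-0.90, SE 0.09, adjusted p = 4.1e-08) and 1.74-fold in the DHX36 knockout (-0.80, SE 0.09, adjusted p = 5.7e-07). The double knockout differed from the DHX36 knockout by -0.10 (95% interval -0.28 to 0.07), and the FANCJ knockout from wild type by 0.27 (SE 0.08, adjusted p = 0.114). The overlapping gene Ergic1 fell by 0.67 (adjusted p = 4.8e-06) in the double knockout and by 0.33 (adjusted p = 0.00946) in the DHX36 knockout, and reads of the pair cannot be told apart here.

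Dusp6, a cytoplasmic phosphatase specific for ERK, was at 54.9, 47.7 and 50.2 CPM in the double knockout, 73.2, 68.8 and 82.3 CPM in the DHX36 knockout, 81.9, 83.1 and 69.7 CPM in the FANCJ knockout and 70.2, 66.8 and 69.3 CPM in wild type. The double knockout stood below the 9 other libraries, and no single knockout was separated from wild type. The fall in the double knockout was 1.35-fold (-0.43, SE 0.10, adjusted p = 0.00189). In the DHX36 and FANCJ knockouts the difference was 0.13 (adjusted p = 0.393) and 0.19 (adjusted p = 0.380).

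The Sprouty genes, which encode membrane-associated inhibitors of receptor tyrosine kinase signalling, moved in opposite directions in the double knockout. Spry2 was at 32.9, 26.8 and 26.4 CPM in the double knockout, 43.5, 47.5 and 39.4 CPM in the DHX36 knockout, 30.0, 40.7 and 27.6 CPM in the FANCJ knockout and 48.5, 47.9 and 36.1 CPM in wild type. Its double knockout libraries were all below those of the DHX36 knockout and wild type and overlapped the FANCJ knockout. Spry2 fell by 0.62 (SE 0.14, adjusted p = 0.00185) in the double knockout, and the differences in the DHX36 knockout (-0.03, adjusted p = 0.895) and the FANCJ knockout (-0.42, adjusted p = 0.160) did not pass.

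Spry4 was at 58.4, 63.0 and 64.6 CPM in the double knockout, 102, 106 and 113 CPM in the DHX36 knockout, 48.7, 37.1 and 48.5 CPM in the FANCJ knockout and 59.8, 37.1 and 39.1 CPM in wild type. The DHX36 knockout stood above all other libraries, the double knockout overlapped wild type through wild-type library 1, and the FANCJ knockout overlapped wild type. It rose 2.37-fold in the DHX36 knockout (1.24, SE 0.14, adjusted p = 8.3e-07) and 1.37-fold in the double knockout (0.46, SE 0.14, adjusted p = 0.0138). The second call was lost without wild-type library 2 (0.32, adjusted p = 0.106) or 3 (0.36, adjusted p = 0.0767) and at equal depth (0.44, adjusted p = 0.0522), while without wild-type library 1 the value was 0.70 (adjusted p = 2.1e-04). In the FANCJ knockout the difference was -0.02 (95% interval -0.32 to 0.28).

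The double knockout was also set against each single knockout, which asks what loss of the second helicase added. Relative to the DHX36 knockout, 7 of the 10 genes fell (edgeR) and the other 3 did not pass, where 19.7% of all genes tested changed (11.4% fell and 8.28% rose). These were Ier3 (-0.90, SE 0.15), Spry4 (-0.79, SE 0.13), Junb (-0.61, SE 0.10), Spry2 (-0.59, SE 0.14), Dusp6 (-0.56, SE 0.10), Egr1 (-0.45, SE 0.12) and Ier2 (-0.44, SE 0.08), and the median over the 10 was -0.50, against -0.00 over all genes. At equal depth 5 of the 7 passed, the calls of Egr1 (-0.26, adjusted p = 0.371) and Spry2 (-0.51, adjusted p = 0.0949) being lost. At full depth Prdx2, which overlaps Junb, was at -0.27 (adjusted p = 0.0561). Ergic1, which overlaps Dusp1, was at -0.34 (adjusted p = 0.00799).

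Relative to the FANCJ knockout, 6 genes fell and 2 rose, where 36.8% of all genes changed (18.5% fell and 18.3% rose). The largest falls were those of Ier3, 3.92-fold (-1.97, SE 0.14, adjusted p = 4.7e-10), and Dusp1, 2.25-fold (-1.17, SE 0.08, adjusted p = 4.7e-10). Dusp6 fell by 0.62 (SE 0.10) and Junb by 0.77 (SE 0.10), beside Fos and Jun. The overlapping genes fell as well, with Ergic1 at -0.80 (adjusted p = 2.4e-07) and Prdx2 at -0.55 (adjusted p = 1.2e-04). Egr1 (0.42, SE 0.13, adjusted p = 0.0153) and Spry4 (0.47, SE 0.13, adjusted p = 0.00815) rose, and both calls were lost without FANCJ knockout library 2 (0.35, adjusted p = 0.0908, and 0.35, adjusted p = 0.0688). At equal depth Egr1 was at 0.74 (adjusted p = 0.00525).

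Whether loss of FANCJ acted differently with and without DHX36 was tested as an interaction, the log2 change of the double against the DHX36 knockout minus that of the FANCJ knockout against wild type. It passed for 5 of the 10 genes, each time negative, where it passed for 8.79% of all genes (6.06% negative and 2.73% positive). The values were -1.29 (SE 0.20, adjusted p = 2.5e-04) for Ier3, -1.08 (SE 0.24, adjusted p = 0.00553) for Fos, -0.77 (SE 0.19, adjusted p = 0.0127) for Spry4, -0.75 (SE 0.14, adjusted p = 0.00120) for Dusp6 and -0.66 (SE 0.14, adjusted p = 0.00333) for Jun. Fos and Jun rose with FANCJ loss where DHX36 was present and did not pass without it (-0.27, adjusted p = 0.272, and -0.16, adjusted p = 0.268), while Ier3, Spry4 and Dusp6 fell with FANCJ loss where DHX36 was absent. The call of Spry4 was lost at equal depth (-0.64, adjusted p = 0.108). Egr1 had the only positive value (0.40, SE 0.18, adjusted p = 0.197), and the remaining 4 were between -0.39 and -0.17 and did not pass. The interaction of Ergic1, which overlaps Dusp1, was -0.47 (adjusted p = 0.0189). That of Prdx2, which overlaps Junb, was -0.31 (adjusted p = 0.180).

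**Figure D3:**
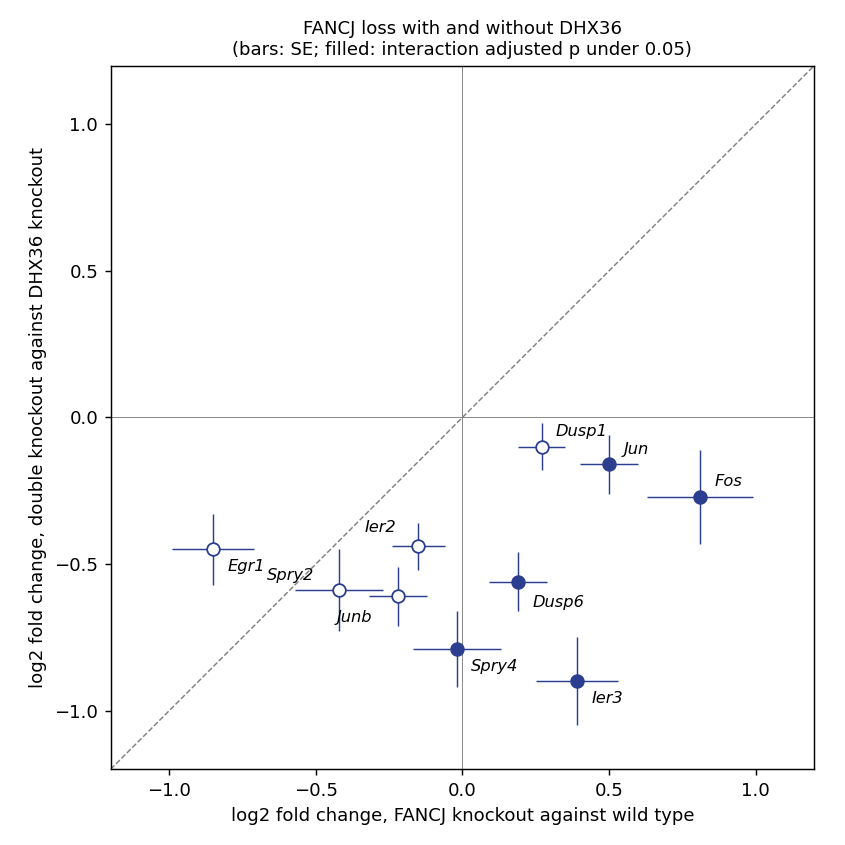
Log2 change with loss of FANCJ in cells lacking DHX36 (vertical axis, double against DHX36 knockout) plotted against the change in cells with DHX36 (horizontal axis, FANCJ knockout against wild type), with SE bars, a dashed line of equal change and filled points where the interaction passed. All 10 points lie below 0 on the vertical axis, from -0.90 for Ier3 to -0.10 for Dusp1, and Egr1 alone lies above the dashed line.

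Spread within a genotype gave no common order of libraries. The library highest for most genes was highest for 5 of the 10 (double knockout library 3 and DHX36 knockout library 2), and the library lowest for most, DHX36 knockout library 1, was lowest for 6. The biological coefficient of variation estimated by edgeR ran from 6.81% for Egr1 to 11.8% for Fos, against a trend at their levels of 10.3% and 10.2%.

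Other genes of the pathway came from 4 lists. Of 27 further immediate early genes 25 were tested, and in the double knockout 12 fell and 3 rose, where 17.3% of all genes fell and 16.6% rose, with a median log2 change of -0.33. Fosl1 (-1.26, SE 0.15), a FOS-related AP-1 subunit, Ier5 (-1.18, SE 0.15), Zfp36l2 (-1.17, SE 0.12), which promotes decay of AU-rich mRNAs, and Maff (-0.96, SE 0.12), a small bZIP factor, fell most. In the DHX36 knockout 4 fell and 2 rose (median -0.06), a share near the 24.4% of all genes that changed. Among them were the matricellular gene Ccn1 (-0.84, SE 0.15), Ier5 (-0.74, SE 0.16), the kinase Plk2 (-0.52, SE 0.09) and, upward, Fosl2 (0.34, SE 0.12, adjusted p = 0.0365). Without wild-type library 2 or DHX36 knockout library 2 the list had 3 down and 0 up. The call of Ier5 was lost at equal depth (-0.59, adjusted p = 0.0749), and that of Fosl2 without any 1 of the 3 wild-type libraries or DHX36 knockout libraries 2 or 3 (adjusted p = 0.0752, 0.0720, 0.116, 0.121 and 0.142).

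In the FANCJ knockout, where 1.45% of all genes rose, 3 of the 25 rose and the other 22 did not pass (median 0.06). Those that rose were Btg1 (0.81, SE 0.15) and Btg2 (0.46, SE 0.10), antiproliferative genes, and Plk2 (0.34, SE 0.09, adjusted p = 0.0490). The unadjusted p was under 0.05, in either direction, for 13 of the 25 and for 1910 of the 12765 genes tested. Without wild-type library 1 or FANCJ knockout library 1 only 1 passed. The call of Btg2 was lost in both cases (adjusted p = 0.0825 and 0.0850), and that of Plk2 without any 1 of the 6 libraries (adjusted p = 0.0798 to 0.157). Between the double and the DHX36 knockout 10 fell and 3 rose, where 11.4% of all genes fell and 8.28% rose. The interaction passed for 9, each time negative, where 6.06% of all genes had a negative and 2.73% a positive one.

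Of 21 further ERK feedback and output genes 20 were tested. In the double knockout 7 fell and 5 rose (median -0.08), where 33.9% of all genes changed. Etv1, an ETS factor induced by ERK, rose by 1.79 (SE 0.12), while the phosphatase genes Dusp14 (-1.58, SE 0.12) and Dusp10 (-1.03, SE 0.20) and the cyclin gene Ccnd1 (-1.09, SE 0.11) fell. In the DHX36 knockout 7 rose and 4 fell (median 0.22), where 24.4% of all genes changed. The Sprouty-related inhibitor Spred3 was at 1.89 (SE 0.21), from a low wild-type mean of 4.06 CPM. Etv1 was at 1.37 (SE 0.12), Etv5 at 0.76 (SE 0.09) and Dusp14 at -0.74 (SE 0.12). In the FANCJ knockout, where 2.07% of all genes changed, 0 of the 20 passed by edgeR and 0 by DESeq2 (median 0.07). An unadjusted p under 0.05 was found for 6 of the 20 and for 1910 of the 12765 genes tested. Without wild-type library 3, 1 of the 20 rose. Between the double and the DHX36 knockout 10 of the 20 fell and 1 rose (median -0.44), where 11.4% of all genes fell and 8.28% rose. The interaction passed for 5 of the 20, each time negative (median -0.39). Over all genes 6.06% had a negative and 2.73% a positive one.

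**Figure D4:**
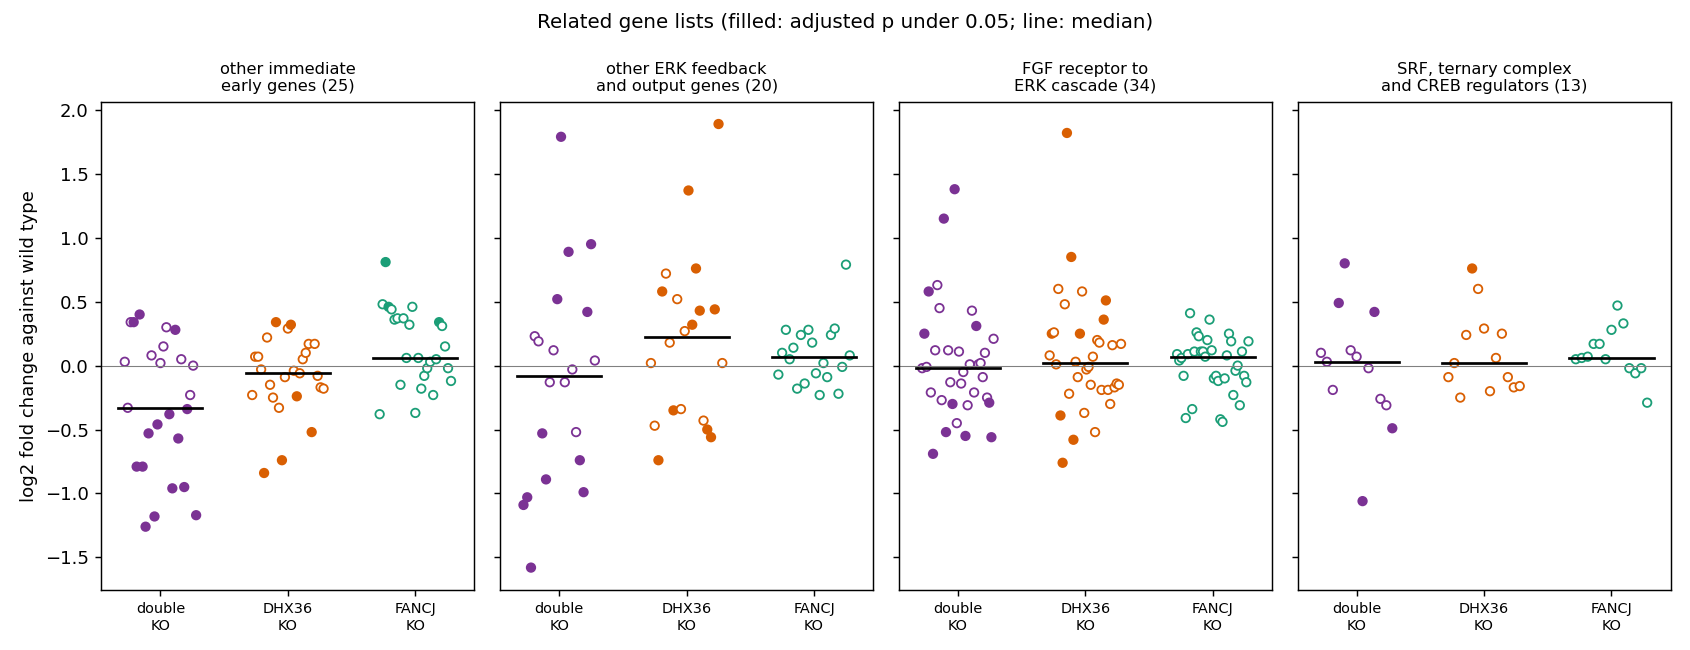
Log2 fold change against wild type (vertical axis) of each tested gene of the 4 related lists (panels, with the number tested) in the double knockout, the DHX36 knockout and the FANCJ knockout; filled points passed the test and the black line is the median. The further immediate early genes have a median of -0.33 in the double knockout and the FANCJ knockout has filled points in that list only.

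Against wild type, the cascade from FGF receptors to ERK was called about as often as all genes. Of 34 genes tested 6 fell and 5 rose in the double knockout (median -0.02), where 33.9% of all genes changed, with the scaffold Ksr1 at 1.38 (SE 0.24), the adaptor Frs3 at 1.15 (SE 0.28), the receptor Fgfr1 at -0.69 (SE 0.10) and its ligand Fgf4 at 0.58 (SE 0.09). In the DHX36 knockout 6 rose and 3 fell (median 0.02), where 24.4% of all genes changed, with the receptors Fgfr4 at 1.82 (SE 0.26) and Fgfr2 at -0.76 (SE 0.13), Frs3 at 0.85 (SE 0.30) and the docking protein Gab1 at -0.58 (SE 0.08). The call of Frs3 there was lost without wild-type library 1 or 3 or DHX36 knockout library 1 or 2 (adjusted p = 0.178, 0.111, 0.135 and 0.136). Wild-type means were low for Ksr1 (2.71 CPM), Frs3 (3.29 CPM) and Fgfr4 (2.30 CPM). Between the double and the DHX36 knockout 7 of the 34 fell and 3 rose (median -0.04), where 11.4% of all genes fell and 8.28% rose. At equal depth 4 fell and 2 rose. The interaction was negative for 2 of the 34 and positive for 1. In the FANCJ knockout, where 2.07% of all genes changed, 0 of the 34 passed by edgeR and 0 by DESeq2 (median 0.07). An unadjusted p under 0.05 was found there for 6 of the 34 and for 1910 of all 12765 genes. Of 13 SRF, ternary complex and CREB regulators, 2 fell and 3 rose in the double knockout (median 0.03), again near the 33.9% of all genes, with the ternary complex factor Elk3 at -1.06 (SE 0.17), Crem at 0.80 (SE 0.20), Srf at -0.49 (SE 0.14) and the coactivator Crebbp at 0.49 (SE 0.12). Elk3 was at -0.66 at equal depth (adjusted p = 0.0258). The call of Srf was lost at equal depth (-0.24, adjusted p = 0.310) and without wild-type library 1 (adjusted p = 0.0550) or double knockout library 2 (0.0591). Crem alone passed in the DHX36 knockout (0.76, SE 0.20). In the FANCJ knockout 0 of the 13 passed by edgeR and 0 by DESeq2. There 1 of the 13 had an unadjusted p under 0.05, beside the same 1910 of all 12765 genes.

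Of the 7 embryonic stem cell markers, 5 rose and 0 fell in the double knockout, where 16.6% of all genes rose. In the DHX36 knockout, where 12.8% of all genes rose, 3 rose and 0 fell, and in the FANCJ knockout 0 passed. All 7 rose in the double relative to the FANCJ knockout, where 18.3% of all genes rose. The part of this difference in the results above was not tested. Markers of other cell types moved with the genotypes as well. The 8 fibroblast markers summed to 31.9 to 38.0 CPM in the double knockout, 73.2 to 84.8 CPM in the DHX36 knockout, 81.5 to 87.7 CPM in the FANCJ knockout and 86.8 to 92.8 CPM in wild type, and all 8 had counts in each genotype. Of 5 tested in the double knockout, 3 fell and 2 rose, where 17.3% of all genes fell and 16.6% rose. Col1a1 (-2.59), Col1a2 (-0.57) and Col3a1 (-1.80) fell there, while Thy1 (1.61) and Pdgfra (2.05) rose. In the DHX36 knockout Col1a1 (-0.72) fell, Thy1 (1.91) rose and the rest tested did not pass. The fibroblast sums of both genotypes therefore do not stand for the list. In the FANCJ knockout 0 of the 5 passed. The 7 primitive endoderm markers summed to 75.0 to 78.9 CPM in the double knockout and 64.2 to 70.2 CPM in the DHX36 knockout. They summed to 158.9 to 169.1 CPM in the FANCJ knockout and 75.7 to 93.0 CPM in wild type. In the FANCJ knockout 4 of 6 tested rose, where 1.45% of all genes rose. Gata6 and Sox17 rose in the DHX36 knockout (1.12 and 2.10) and in the double knockout (1.83 and 1.96). Col4a1 fell in both (-0.87 and -0.85) and the rest tested did not pass, so these 2 sums do not stand for the list. The 5 mesendoderm markers summed to 34.4 to 35.9 CPM in the double knockout and 53.5 to 65.5 CPM in the DHX36 knockout. They summed to 21.3 to 25.8 CPM in the FANCJ knockout and 29.9 to 32.3 CPM in wild type. Mesp1 had 0 counts in the FANCJ knockout, and Gsc and Mesp1 had 0 in wild type. Of 3 tested, T (-1.25) fell and Eomes (0.57) rose in the double knockout, so the sum there does not stand for the list. In the DHX36 knockout T (1.06) and Eomes (0.82) rose, and in the FANCJ knockout T alone passed (-2.28). The 5 neuroectoderm markers summed to 127 to 142.5 CPM in the double knockout, 177 to 182 CPM in the DHX36 knockout, 160.1 to 168 CPM in the FANCJ knockout and 158 to 166 CPM in wild type. In the DHX36 knockout 4 of these 5 fell, namely Sox1 (-1.14), Pax6 (-0.99), Map2 (-0.99) and Nes (-0.62), where 11.6% of all genes fell. Tubb3 (0.36) rose there, so the higher sum does not stand for the list. In the double knockout, where 17.3% of all genes fell, the same 4 fell and Tubb3 did not pass (-0.07). The part of such cells in the results above was not tested, and in bulk samples fewer cells of a type and less RNA per cell cannot be told apart.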

How the data were processed

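RNA of 12 bulk samples was made into libraries by a protocol similar to CEL-Seq2, per the labels' protocols, a method that reads the 3′ ends of polyadenylated transcripts. The authors deposited raw counts per gene, not normalised, and the submitters' processing notes name BWA, GRCm38 and hg38. Whether a count is a read or a molecule, and how strand was used, are points the sources used here do not state. Besides 32285 genes there were 92 spike-in transcripts, at most 0.000276% of a library, which were left out. From the counts edgeR 4.0.16 (R 4.3.3) computed TMM factors, CPM and, after its default filter by genotype (12765 genes left), two-sided quasi-likelihood tests in 1 model of the 12 libraries with genotype as its term, with Benjamini-Hochberg adjustment at 0.05. Standard errors are the log2 fold change over the square root of F. DESeq2 1.42.0, RLE factors, no filter, a replicate block, single pairs of genotypes, equal depth (4284785 counts) and leaving out each library were alternatives.

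The members and lists were chosen with earlier results of these data known. Named are the 10 members, up to 4 changed genes of each list against wild type by size of change and, for Spry4 and Dusp1, the 3 genes of at least 20 CPM with the most similar profile. Listed symbols missing from the table (4) were matched through RefSeq synonyms. Total counts, 4284785 to 14721931, limit the precision of genes with few counts. Counts are of 3′ ends, so levels were not compared between genes.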

Additional observations from a re-analysis of the deposited data

Results flagged for a closer look

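For 5 of the genes the effect of FANCJ loss differed between cells without and with DHX36 by a test of the difference itself (edgeR interaction, adjusted over 12765 genes). The log2 difference was -1.08 for Fos, -0.66 for Jun, -1.29 for Ier3, -0.75 for Dusp6 and -0.77 for Spry4. Markers of other cell types had an interaction as well, where 6.06% of all genes had a negative one. It was negative for 2 of 5 fibroblast markers (Col1a1 -1.79, Col3a1 -1.64) and 2 of 6 primitive endoderm markers (Sox17 -2.55, Col4a1 -0.88) that were tested. It was also negative for 1 of 5 neuroectoderm markers (Tubb3 -0.46) and passed for 0 of 3 mesendoderm markers. The rest tested in these lists did not pass. Of 7 embryonic stem cell markers, Esrrb alone passed, with a positive value (0.66), as had 2.73% of all genes. The part of cells of other types in the results for the 5 genes was not tested.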

How the results depend on the processing

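Of 770 repeats of the members' fold changes, 736 had the same sign and the same side of the threshold, 15 lost and 5 gained a call, and 14 changed sign, all of differences that had not passed. Calls were gained by the interaction of Dusp1 (DESeq2, adjusted p = 0.0389, and without wild-type library 3) and of Junb (without FANCJ knockout library 2 or wild-type library 3) and by Spry2 in the FANCJ knockout (without its library 2, -0.61). At equal depth Fos in the double knockout against wild type was 0.26 and Jun in the DHX36 knockout 0.03. Leaving out 1 library in turn gave -0.04 to 0.05 for Egr1, -0.12 to 0.03 for Jun and -0.16 to 0.04 for Spry2 in the DHX36 knockout, -0.14 to 0.23 for Spry4 in the FANCJ knockout, -0.22 to 0.06 for Fos in the double knockout, -0.11 to 0.01 for Ier2 in the double against the FANCJ knockout and -0.28 to 0.03 for the interaction of Spry2. Members changed in the FANCJ knockout numbered 1 to 4 without 1 library. Over all genes, equal depth left 2064 changed genes in the DHX36 knockout (3113 at full depth) and 95 in the FANCJ knockout (264). It left 1418 between the double and DHX36 knockouts (2512), 3129 between the double and FANCJ knockouts (4697) and 617 in the interaction (1122). The thinning was drawn once, and the cause of the smaller numbers was not tested. The FANCJ count was 159 with 2 genotypes alone, 418 without a filter and 110 to 198 without 1 library; the cause was not tested. The replicate numbers did not pair the libraries (correlations of -0.06 to 0.05 for 18 same-number pairs), and a replicate block gave 3004 changed genes in the DHX36 knockout, 233 with FANCJ lost and 4264 with both lost, and altered no member's call; of the listed genes named, Plk2 lost its call in the FANCJ knockout (adjusted p = 0.0753). Egr1, Fos and Ier3 had the lowest counts of the members, 54 to 237 per library; at equal depth calls were lost by Egr1, Spry2 and Spry4. The related lists were repeated as an alternative chosen after seeing the data.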

Other observations

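Features not used to choose the genes were read from the annotated 3′ UTRs (the longest of each gene, GENCODE M21). The pentamer ATTTA, found in AU-rich elements that shorten mRNA life, occurred at a median of 2.79 per kb over the 10 genes and 1.34 over 12211 tested genes, and 8 of the 10 were above that median. Ier3 had 5 copies in 613 bases, Dusp1 4 in 690 and Fos 4 in 815, while Ier2 had 0 in 755. The longer TATTTAT was present in 6 of the 10 and in 30.7% of the tested genes. A G-quadruplex motif on the sense strand was present in the 3′ UTR of Jun, 1 of the 10, and in 12.2% of the tested genes.

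By the root mean square difference between centred log2 CPM profiles over the 12 libraries, among 5694 genes of at least 20 CPM, the profiles most like that of Spry4 were those of Aak1 (0.209), Nfu1 (0.211) and Mbd4 (0.213). Aak1 averaged 31.4 CPM in the double knockout, 52.7 CPM in the DHX36 knockout, 26.3 CPM in the FANCJ knockout and 27.5 CPM in wild type. For Dusp1 they were Ptpn14 (0.0897), Fstl1 (0.110) and Myl6 (0.116). Ptpn14 averaged 55.9 CPM in the double knockout, 56.2 CPM in the DHX36 knockout, 121 CPM in the FANCJ knockout and 107 CPM in wild type.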
